A study of Mus musculus with 5 samples.

Results

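A 5.5 Mb stretch of mouse chromosome 13, chr13:26000001-31500000 in mm10, was examined for contacts with the Pik3r1 promoter region, measured by 4C-seq. 4C-seq sequences the DNA ligated to 1 chosen bait fragment after crosslinking. A restriction fragment with reads is therefore taken to have been close to the bait in some cells. Pik3r1 encodes a regulatory subunit of phosphoinositide 3-kinase, and the bait lay at position 101766365, between 70.3 and 75.8 Mb from the stretch. The stretch holds Hdgfl1, the prolactin gene cluster, Sox4 and Irf4, and was chosen by position: all DpnII fragments from 26000001 to 31500000 were taken, 13650 of 292200 listed on the chromosome. They made up 4.79% of the 284869 fragments more than 1.5 Mb from the bait, called far fragments here. The choice was made with earlier results of these libraries known, so the shares of covered fragments, those with at least 1 read, are described for thymocytes against muscle without a test. The thymocyte group is a single library, so its own spread is unknown.

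There were 5 libraries: 1 from CD4+/CD8+ double-positive (DP) thymocytes of WT mice aged 4 weeks, and 2 each from skeletal muscle of WT and GRko mice aged 10 to 12 weeks. All mice were of the C57/Bl6 strain. The labels give the GRko genotype as KO only. From knowledge of the study it is taken as loss of the glucocorticoid receptor, and neither the allele nor any Cre driver is named. Tissue and age differed together between thymocytes and muscle. No label says that replicates were separate animals. The p-values therefore rest on a spread between libraries that may be technical. Contact counts carry no expression, so the labelled tissues could not be checked by markers.

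The prolactin family is a group of peptide hormone genes that arose by repeated duplication. Prl itself is made mainly by the pituitary, and most of the other mouse members are made by the placenta. Sox4 encodes an HMG-box transcription factor used in lymphocyte development, and Irf4 a transcription factor of lymphocyte activation. Contacts over such distances are known to follow the large-scale folding of a chromosome, in which segments of like chromatin state tend to meet.

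The annotation places 73 genes in the stretch, of which 34 code for proteins. Of the 34, 23 belong to the prolactin family and lie side by side between 27057570 and 28151595. Prolactin promoters and those of the other genes differ in composition, and 3 are shown for that reason, each as the 250 bases upstream of the start site in GRCm38.p6 (the coordinates of mm10) from RefSeq, written 5′ to 3′ on the gene's strand with every CG dinucleotide in capitals.
Prl (chr13:27057320-27057569, plus strand): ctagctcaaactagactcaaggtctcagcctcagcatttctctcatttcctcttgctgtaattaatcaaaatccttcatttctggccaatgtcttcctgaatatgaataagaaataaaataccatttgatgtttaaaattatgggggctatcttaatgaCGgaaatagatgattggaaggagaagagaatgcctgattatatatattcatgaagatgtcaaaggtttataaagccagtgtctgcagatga
Sox4 (chr13:28953700-28953949, minus strand): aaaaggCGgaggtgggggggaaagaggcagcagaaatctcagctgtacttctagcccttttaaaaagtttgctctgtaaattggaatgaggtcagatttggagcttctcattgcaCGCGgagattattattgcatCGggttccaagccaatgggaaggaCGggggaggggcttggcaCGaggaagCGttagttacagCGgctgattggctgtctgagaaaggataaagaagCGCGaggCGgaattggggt
Irf4 (chr13:30748983-30749232, plus strand): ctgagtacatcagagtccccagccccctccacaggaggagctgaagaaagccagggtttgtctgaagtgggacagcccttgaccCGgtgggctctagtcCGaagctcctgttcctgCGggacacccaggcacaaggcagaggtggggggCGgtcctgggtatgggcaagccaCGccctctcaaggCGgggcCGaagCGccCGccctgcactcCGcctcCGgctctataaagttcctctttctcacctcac

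The Prl promoter held 1 CG dinucleotide, and the promoters of Sox4 and Irf4 held 11 each. Promoters of 20 of the 23 prolactin genes were matched, with 0 to 5 CG dinucleotides (median 2) and a G and C content of 34% to 43.2% (median 38.8%). Those of 8 of the 10 other listed genes held 6 to 38 (median 14) and had a G and C content of 34.4% to 77.6% (median 61.2%). The median over all 32851 promoters of the same table was 6 CG dinucleotides and a G and C content of 52.4%. The motif TATAAA, on either strand, was in 4 of the 20 prolactin promoters, 20%, and in 12.4% of all promoters. These are counts of letters in a fixed window and name no bound factor.

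**Figure D1:**
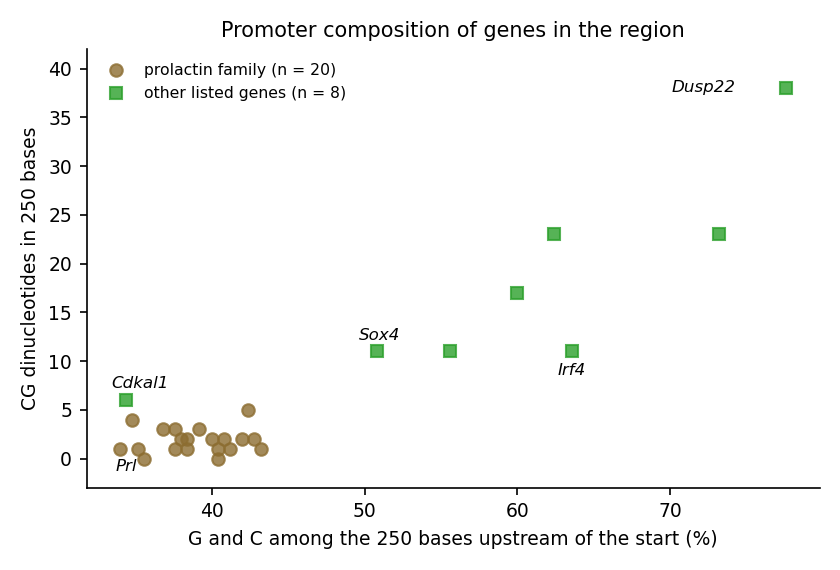
Each point is a gene of the stretch, with the G and C content (percent) of the 250 bases upstream of its start site on the x axis and the number of CG dinucleotides there on the y axis, for 20 prolactin genes (circles) and 8 other listed genes (squares). All 20 prolactin promoters have at most 5 CG dinucleotides, and all 8 others have at least 6. Of all 32851 promoters, 49.6% have at most 5.

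A second feature of the cluster bears on what 4C-seq can count there. DpnII cuts at GATC, and the positions in the count files were the midpoints between neighbouring GATC sites: all 258 pairs of sites at least 30 bp apart inside chromosome 13 promoters had a listed position within 0.5 bp of their midpoint. A read therefore begins at such a site and, after removal of the bait, reached 29 nt in the thymocyte library and in replicate 1 of each muscle genotype, and 23 nt in replicate 2 of each. The upstream bases of Prl3d1, a placental prolactin gene, are shown with the GATC sites in capitals, followed by the 29 bases that a read from the site nearest the gene would give (chr13:27094002-27094030).
Prl3d1 (chr13:27093939-27094188, plus strand): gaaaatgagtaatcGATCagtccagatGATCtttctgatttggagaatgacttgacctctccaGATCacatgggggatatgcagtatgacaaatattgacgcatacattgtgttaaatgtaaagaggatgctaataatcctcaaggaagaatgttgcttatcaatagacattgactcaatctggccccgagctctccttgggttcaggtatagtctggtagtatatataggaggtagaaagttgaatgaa
Prl3d1 site end: GATCacatgggggatatgcagtatgacaa

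These 29 bases are also present in the promoters of the neighbouring copies Prl3d2 and Prl3d3. Aligned at their best offset, the upstream bases of Prl3d1 and Prl3d2 were equal at 228 of 233 positions (97.9%), and those of Prl3d2 and Prl3d3 at 245 of 246 (99.6%). Of the 13 site ends in these 3 promoters, 11 occurred in another gene's promoter on chromosome 13, whether read to 23 or to 29 bases. Such a read has no single place in the genome. The sources used here do not give how the authors treated it, and its effect on counts over the cluster was not tested. None of the 26 fragments within the bodies of these 3 genes was covered in any library. Over the whole prolactin span the libraries covered 0.276% to 0.898% of fragments, so 26 uncovered fragments do not set these genes apart.

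The libraries differed in depth and in how their reads were spread. Covered far fragments numbered 9363 for thymocytes, 6244 for WT replicate 1, 3022 for WT replicate 2, 2791 for GRko replicate 1 and 2434 for GRko replicate 2. The median covered far fragment carried 40 reads in thymocytes, 36 and 2 in the WT replicates, and 27 and 2 in the GRko replicates, and 45.7% and 48.5% of covered far fragments in the replicates read at 23 nt had a single read, against 9.22% to 14.0% in the other 3 libraries. WT replicate 2 and both GRko libraries also shared reads with one another: of far fragments with at least 1000 reads in one of them, 12.0% to 28.7% had 1 to 3 reads in another. In the other 14 ordered pairs of libraries this was 0% to 1.61%, and over all far fragments 0.234% to 0.628% had 1 to 3 reads. The headers of these 3 files are also worded alike and differ from those of the other 2. A minimum of 10 reads per fragment leaves out such low counts. Values of the stretch, its parts and its listed genes are given at that minimum beside those at 1 read. Counts near start sites are given at 1 read only.

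**Figure D2:**
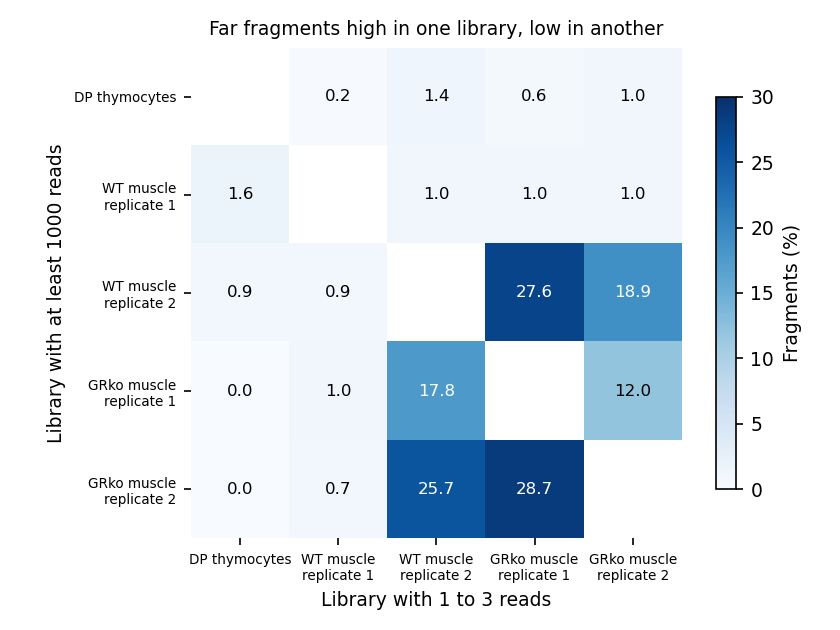
Each cell gives the percentage of far fragments with at least 1000 reads in the library of its row that had 1 to 3 reads in the library of its column. The 6 cells among WT replicate 2 and both GRko replicates lie between 12.0% and 28.7%, and the 14 others lie at or below 1.61%.

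The whole stretch was covered less than evenly in every library, as were the stretches of the same length on either side. Thymocytes lay within the range of muscle at 3 minimum read numbers, and with 2434 but not 848 fragments of most reads per library. It held 289 covered fragments in thymocytes, 190 and 112 in the WT replicates, and 73 and 101 in the GRko replicates. As a share of far covered fragments this was 3.09% in thymocytes (95% Wilson interval 2.76 to 3.46), 3.04% and 3.71% in the WT replicates, and 2.62% and 4.15% in the GRko replicates, against 4.79% for even coverage. The 4 muscle libraries bracket the thymocyte share on both sides. With at least 2 reads per fragment the shares were 3.07%, 2.91%, 3.53%, 2.38% and 3.35% in the same order, and with at least 10 reads 3.06%, 3%, 3.34%, 2.37% and 2.59%. Thymocytes minus the WT mean came to -0.288, -0.156 and -0.109 percentage points at the 3 thresholds, within the SD of 0.469, 0.441 and 0.242 between the WT replicates. With the 2434 fragments of most reads taken from each library, the thymocyte share was 3.25%, inside the 2.40% to 4.15% of the muscle libraries. With 848, a cut added after seeing the data, it was 4.13%, above the 2.00% to 3.42% of the muscle libraries. The difference from the WT mean was 0.0204 points with 2434 fragments and 1.12 points with 848. The intervals cover counting error only, and PCR copies of a ligation product were not told apart.

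**Figure D3:**
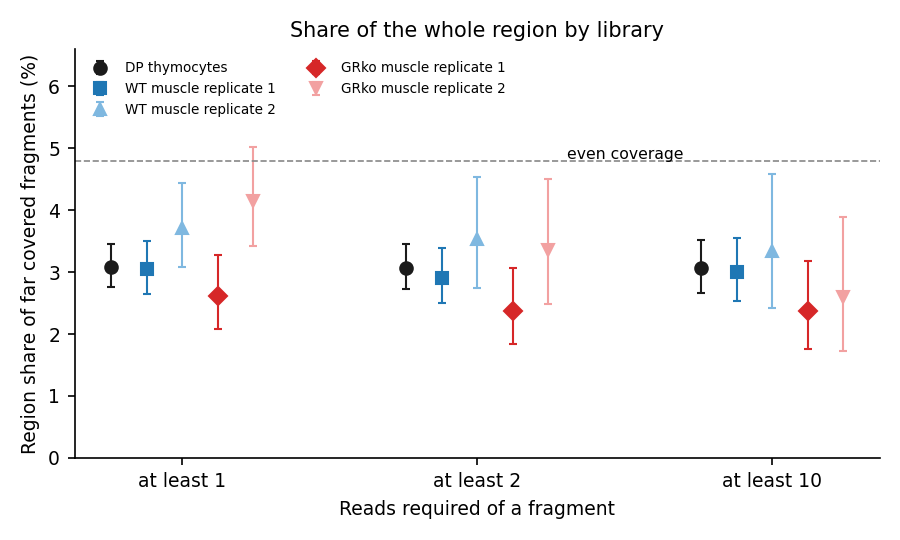
The y axis gives the percentage of far covered fragments that lay in the stretch, for each library, at a minimum of 1, 2 or 10 reads per fragment on the x axis. Bars are 95% Wilson intervals, which cover counting error only, and the dashed line marks even coverage at 4.79%; the thymocyte share stays between 3.06% and 3.09%.

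The adjoining stretches of the same length were also covered less than evenly in every library. Even coverage would give 4.90% in the lower and 4.96% in the higher one. Thymocytes stood near muscle there too, but not always inside its range. The lower one held 2.92% of far covered fragments in thymocytes, 2.24% and 3.24% in the WT replicates and 2.40% and 4.31% in the GRko replicates. Thymocytes were above all 4 muscle libraries there with at least 10 reads, at 2.81% against 2.03% to 2.48%. In the higher one the shares were 3.13%, 3.40%, 3.97%, 3.58% and 4.44%, with thymocytes the lowest, and also with at least 10 reads, at 3.03% against 3.32% to 3.55%. At the edges of the stretch, the last window inside its lower end held 0.0320% in thymocytes and the first outside it 0.0320% too. At the higher end these were 0.0961% inside and 0.117% outside.

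In windows of 500 kb, thymocytes fell outside the muscle range about as often here as over the whole chromosome. Thymocytes lay below all 4 muscle libraries in 3 of the 11 windows of the stretch (27.3%), those starting at 26000001, 26500001 and 31000001, and in 37.8% of all 230 far windows. They lay above all 4 in 2 of 11 (18.2%), those starting at 28000001 and 28500001, and in 24.3% of all far windows. With at least 2 reads per fragment 3 and 2 windows stood beside 35.2% and 22.2%, and with at least 10 reads 3 and 2 beside 24.8% and 20.4%. The window starting at 28500001 held 72 covered fragments in thymocytes, 29 and 10 in the WT replicates, and 9 and 14 in the GRko replicates. That starting at 28000001, which includes the last prolactin genes Prl4a1 and Prl5a1, held 39, 11 and 6, and 6 and 9. Thymocytes lay inside the muscle range in the windows starting at 27000001 (5 covered fragments), 27500001 (11), 29000001 (40), 29500001 (33), 30000001 (28) and 30500001 (49).

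Coverage varied steeply along the stretch. From lower to higher coordinates it was divided at gene ends into 5 parts: 1.06 Mb with Hdgfl1 as the only protein-coding gene, the prolactin span of 1.09 Mb, 797 kb from the last prolactin gene to Sox4, 2.03 Mb from Sox4 to Exoc2, and 526 kb beyond Exoc2. This division was made with the values known, and thymocytes are set against muscle in it without a test.

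The part around Hdgfl1, which encodes a protein related to hepatoma-derived growth factor, was nearly empty in thymocytes. It held 3 covered fragments of 2589 in thymocytes, 23 and 21 in the WT replicates, and 7 and 18 in the GRko replicates. Its share of far covered fragments was 0.0320% in thymocytes (95% Wilson interval 0.0109 to 0.0942), 0.368% and 0.695% in the WT replicates and 0.251% and 0.740% in the GRko replicates. All 4 muscle libraries lay above the thymocyte library, including WT replicate 1, which was not among the 3 that shared low read counts. The effect of shared reads on this part was not tested. With at least 10 reads per fragment, 2 fragments remained in thymocytes, 13 and 3 in the WT replicates, and 6 and 5 in the GRko replicates. The shares were then 0.0313%, 0.300%, 0.279%, 0.338% and 0.590%, again with thymocytes below every muscle library. The 500 kb window that holds Hdgfl1, 26500001 to 27000000, had 0 of 9363 covered fragments in thymocytes, which allows a share of up to 0.0320%. It had 15 and 11 in the WT replicates and 2 and 13 in the GRko replicates. Within the Hdgfl1 gene itself, 1 of 7 fragments was covered, by 1 read in GRko replicate 2.

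The prolactin span was low in every library. It held 26 covered fragments of 2894 in thymocytes, 13 and 14 in the WT replicates, and 8 and 11 in the GRko replicates. These were 0.278% of far covered fragments in thymocytes, 0.208% and 0.463% in the WT replicates, and 0.287% and 0.452% in the GRko replicates, where even coverage would give 1.02%. The thymocyte value lay inside the muscle range. Coverage was thus 0.205 to 0.456 times the even value in muscle and 0.273 times in thymocytes, and with at least 10 reads 0.116 to 0.366 and 0.292 times. Of the 409 fragments inside the 23 prolactin gene bodies, 4 were covered in thymocytes, 1 and 3 in the WT replicates, and 1 and 1 in the GRko replicates. With at least 10 reads these were 3 in thymocytes, 1 and 0 in the WT replicates, and 1 and 0 in the GRko replicates. No library covered any fragment in 16 of the 23 genes. The 23 genes hold 8 to 55 fragments each, and 21716 of all 284869 far fragments were covered in any library. Prl itself had 1 of 19 fragments covered, by 1 read in WT replicate 2. In thymocytes the covered genes were Prl7a1 with 2 fragments and Prl7b1 and Prl4a1 with 1 each, and Prl4a1 was also covered in WT replicate 2 and GRko replicate 1. The other covered genes had 1 fragment each, Prl7c1 in WT replicate 1, Prl7d1 in WT replicate 2 and Prl2a1 in GRko replicate 2. Their reads were 27, 2 and 1, and those of Prl4a1 were 1 in WT replicate 2 and 17 in GRko replicate 1. The fragment with most thymocyte reads in the whole stretch, 2473, lay within Prl7a1 at 27641841 and had 0 reads in the 4 muscle libraries.

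Beyond the last prolactin gene coverage per fragment was higher than over the prolactin span in all 5 libraries, at 1.37 times the even value in thymocytes and 0.519 to 1.17 times in muscle. The 797 kb up to Sox4 hold no protein-coding gene but several non-coding ones. They had 90 covered fragments of 1999 in thymocytes, 37 and 11 in the WT replicates, and 12 and 20 in the GRko replicates. The shares were 0.961% in thymocytes (95% Wilson interval 0.783 to 1.18), 0.593% and 0.364% in the WT replicates, and 0.430% and 0.822% in the GRko replicates. Thymocytes lay above all 4 muscle libraries, at 2.01 times the WT mean. With at least 10 reads the shares were 0.906%, 0.669%, 0.557%, 0.395% and 0.354% in the same order, 1.48 times the WT mean, and thymocytes were again the highest. The long non-coding RNA gene 2610307P16Rik, named after its values were seen, fills 425 kb of this part. It had 53 of 998 fragments covered in thymocytes (5.31%), 25 (2.51%) and 8 (0.802%) in the WT replicates, and 7 (0.701%) and 11 (1.10%) in the GRko replicates. At the higher minimum of 10 reads these were 35, 20 and 4, and 5 and 2. Over all far fragments the libraries covered 3.29%, 2.19%, 1.06%, 0.980% and 0.854%.

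**Figure D4:**
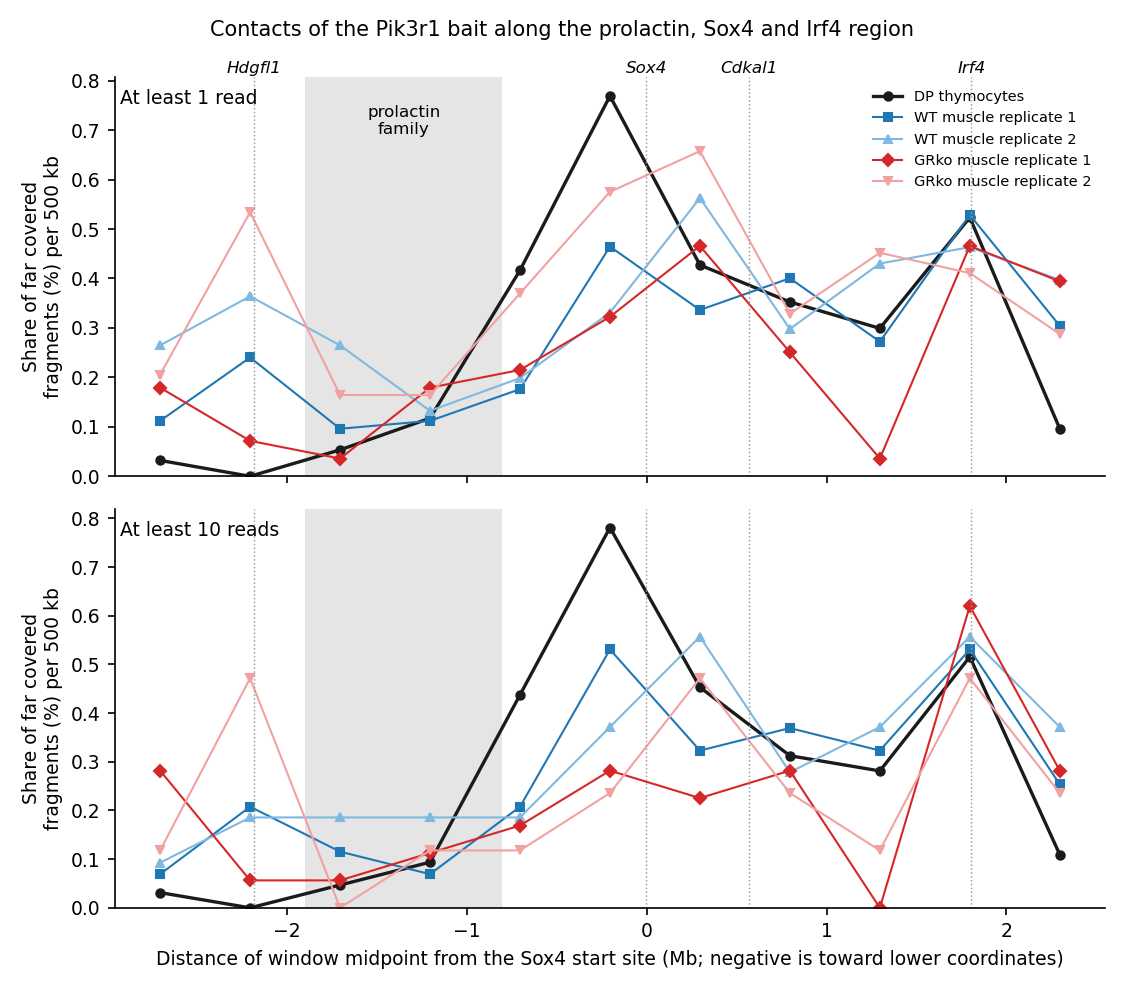
The share of far covered fragments (percent, y axis) in each 500 kb window is plotted against the distance of its midpoint from the Sox4 start site (Mb, x axis) for the 5 libraries, for fragments with at least 1 read (upper) and at least 10 reads (lower). The grey band is the prolactin span and dotted lines mark gene midpoints; the thymocyte line runs from 0% in the Hdgfl1 window to 0.769% and 0.781% in the window that holds Sox4, above every muscle library there.

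The 2.03 Mb from Sox4 to Exoc2 were covered at close to the even level in thymocytes and somewhat below to slightly above it in muscle. This part held 158 covered fragments of 4822 in thymocytes, 96 and 51 in the WT replicates, and 34 and 44 in the GRko replicates. The shares were 1.69% in thymocytes, 1.54% and 1.69% in the WT replicates, and 1.22% and 1.81% in the GRko replicates, against 1.69% for even coverage, so thymocytes lay inside the muscle range. With at least 10 reads the shares were 1.70%, 1.57%, 1.76%, 1.13% and 1.18%, and thymocytes were inside the range again. They were above all 4 muscle libraries with equal numbers of fragments, at 1.85% against 1.21% to 1.81% with 2434 fragments and 2.48% against 0.708% to 1.89% with 848. The same held over the lower-coordinate side of the bait alone, at 2.44% against 1.70% to 2.34%. The final 526 kb beyond Exoc2 were low again in thymocytes, with 12 covered fragments (0.128%), against 21 (0.336%) and 15 (0.496%) in the WT replicates and 12 (0.430%) and 8 (0.329%) in the GRko replicates. Counting fragments with 10 or more reads, thymocytes were the lowest there too, at 0.125% against 0.277% to 0.371% in muscle.

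**Figure D5:**
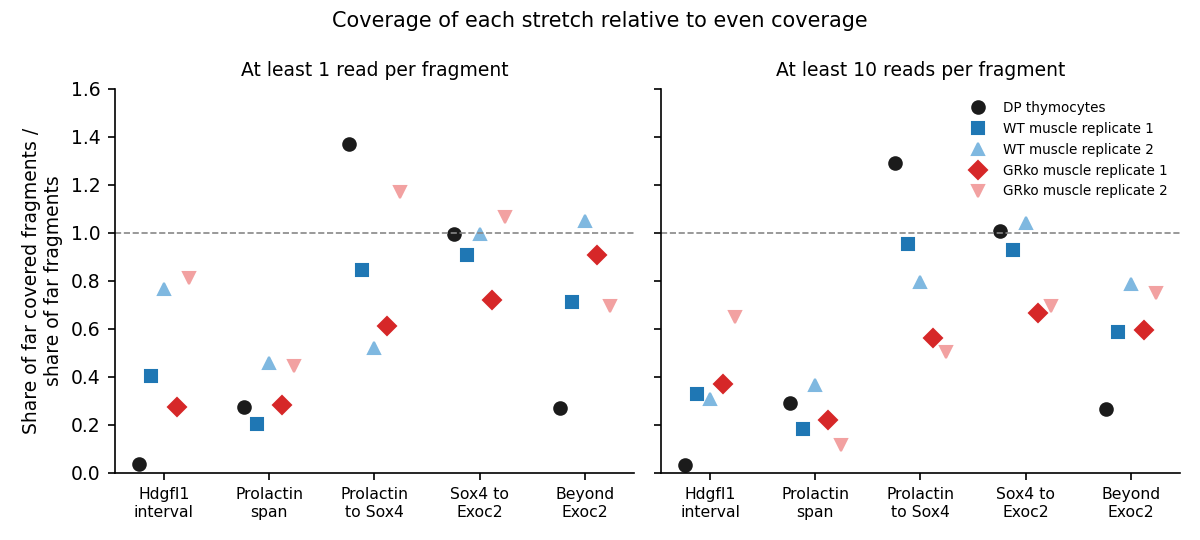
For each of the 5 parts, the share of far covered fragments divided by the share of far fragments is plotted for every library, at a minimum of 1 read (left) and 10 reads (right); the dashed line at 1 marks even coverage. Thymocytes stand at 0.0353 and 0.0344 in the Hdgfl1 part and at 1.37 and 1.29 between the prolactin genes and Sox4, outside the muscle values in both.

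Among the genes of the higher part, Sox4 is short, and 1 of its 10 fragments was covered in thymocytes and 1 in GRko replicate 1. Within 10 kb of its start site, at 28953699, 6 of 42 fragments were covered in thymocytes, 1 and 0 in the WT replicates, and 1 and 0 in the GRko replicates. Cdkal1, which encodes a tRNA-modifying enzyme, spans 664 kb and had 47 of 1517 fragments covered in thymocytes (3.10%), 31 (2.04%) and 21 (1.38%) in the WT replicates, and 13 (0.857%) and 15 (0.989%) in the GRko replicates. In E2f3, a transcription factor gene of the cell cycle, 10 of 171 fragments were covered in thymocytes, 3 and 1 in the WT replicates, and 1 and 2 in the GRko replicates. Mboat1, which encodes a phospholipid acyltransferase, had 13 of 250, then 6 and 5, and 1 and 2. Thymocytes had the most covered fragments in each of these, as they had over the chromosome, so these counts alone set no gene apart. Among fragments with at least 10 reads, Cdkal1 had 31 in thymocytes, 19 and 7 in the WT replicates, and 7 and 4 in the GRko replicates. E2f3 then had 6, 3 and 0, and 1 and 0, and Mboat1 8, 5 and 2, and 0 and 1, while the single Sox4 fragment remained in thymocytes alone. Dusp22, which encodes a phosphatase that acts on T-cell receptor signalling, had 7 of 106 fragments covered in thymocytes, 1 and 1 in the WT replicates, and 2 and 0 in the GRko replicates. At Irf4 the counts were 3 of 45 in thymocytes, 4 and 0 in the WT replicates, and 0 and 1 in the GRko replicates, with WT replicate 1 the highest. At 10 reads or more Irf4 had 3 in thymocytes, 1 in WT replicate 1 and 0 in the other 3 libraries, and thymocytes were the highest. Dusp22 then had 4, 1 and 1, and 2 and 0, in the same order of libraries as before. Exoc2, which encodes an exocyst subunit, had 16 of 405, then 11 and 4, and 5 and 3, and with at least 10 reads 13, 8 and 2, and 4 and 1. Agtr1a, an angiotensin II receptor gene, had 1 of 87 in thymocytes and 0 to 2 in muscle libraries, and Uqcrfs1, a gene of respiratory complex III, had 1 of 14 in thymocytes and 0 in muscle. At 10 reads or more Agtr1a had 1 in thymocytes, 2 in WT replicate 1 and 0 in the other libraries, and Uqcrfs1 kept its 1.

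At a minimum of 1 read, start sites gave the same order of gene groups in 4 of 5 libraries. Within 10 kb of the start of the 8 other listed genes with a matched promoter, 20 of 403 fragments were covered in thymocytes (4.96%), 14 (3.47%) and 5 (1.24%) in the WT replicates, and 4 (0.993%) and 1 (0.248%) in the GRko replicates. For the 20 prolactin genes the figures were 9 of 991 (0.908%), 5 (0.505%) and 6 (0.605%), and 4 (0.404%) and 7 (0.706%). GRko replicate 2 had the opposite order. Over all far fragments 3.29% were covered in thymocytes, 2.19% and 1.06% in the WT replicates, and 0.980% and 0.854% in the GRko replicates. In WT replicate 2 and GRko replicate 1 the other listed genes stood near that level.

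GRko and WT muscle were compared to see if loss of the receptor alters these contacts. No difference passed a test. The share of the whole stretch was 3.37% ± 0.469 in the WT and 3.38% ± 1.08 in the GRko replicates (SD, n = 2 each), a difference of 0.00801 percentage points (exact two-sided permutation test, p = 1, and 1 after Benjamini-Hochberg adjustment over 6 comparisons, the stretch and its 5 parts). With 2 against 2 libraries this test cannot give less than 0.333. At 29 nt, GRko minus WT was -0.427 points, and at 23 nt it was 0.443, so its direction was not shared. With at least 10 reads per fragment it was -0.633 and -0.748 points, and the means were 3.17% ± 0.242 and 2.48% ± 0.160 (exact permutation test, p = 0.333, the smallest possible). Over the 5 parts the differences ran from -0.0996 points (Sox4 to Exoc2) to 0.148 points (before Sox4), each with an adjusted p of 1 (exact permutation test). With at least 10 reads GRko minus WT was negative at either read length in both of these parts. It was -0.442 and -0.585 points from Sox4 to Exoc2, mean -0.513, and -0.275 and -0.203 points before Sox4, mean -0.239. In the Hdgfl1 part it was positive at either read length, at 0.0382 and 0.311 points, mean 0.175. For each of these parts the unadjusted p was 0.333, the smallest possible (exact permutation test). The prolactin span and the part beyond Exoc2 changed sign between read lengths. The adjoining stretches were positive at either read length, at 0.224 and 0.341 points in the lower and 0.228 and 0.0772 in the higher one. Among the 3 libraries that shared reads, GRko muscle minus WT replicate 2 was -0.324 points at a minimum of 1 read.

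In a fit over all far windows with at least 10 covered fragments in at least 2 libraries, edgeR's quasi-likelihood test called 0 of 165 windows (0%) at an adjusted p under 0.05, with 7 at an unadjusted p under 0.05, and DESeq2 called 0. Of the 11 windows of the stretch 6 could be tested, and none was called. Their log2 ratios of GRko over WT ran from -0.51 to 0.41 with a median of 0.018, beside 0.016 over all 165, with 4 above 0 and 2 below. The highest was 29000001 to 29500000, which holds part of Cdkal1 (log2 ratio 0.41 ± 0.37, SE, edgeR adjusted p = 0.994). It held 21 and 17 covered fragments in the WT replicates and 13 and 16 in the GRko replicates. Both GRko counts lie below both WT counts, but the ratio is relative to the unequal library totals. As shares of far covered fragments these were 0.336% and 0.563% in the WT replicates and 0.466% and 0.657% in the GRko replicates, which overlap. The lowest, 30000001 to 30500000 with Mboat1 and Agtr1a, held 17 and 13 in the WT replicates and 1 and 11 in the GRko replicates (-0.51 ± 0.61, adjusted p = 0.994), and its low value rests on GRko replicate 1. Without that library the ratio was 0.45.

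Few fragments recurred between libraries. Of 727 fragments of the stretch covered in any library, 35 (4.81%) were covered in at least 2 and 3 in 3 libraries, against 8.81% in at least 2 among all far fragments. None was covered in 4 or 5. The 3 fragments seen in 3 libraries each had 5152 to 6335 reads in one library and 1 to 4 in the others. That at 26657265, which lies 111 kb from Hdgfl1, had 6335 reads in GRko replicate 2 and 1 each in WT replicate 2 and GRko replicate 1. That at 31074756 had 5152 reads in GRko replicate 2 and 1 each in the same libraries. The fragment at 28817323, within 2610307P16Rik, had 6023 reads in GRko replicate 1, 1 in GRko replicate 2 and 4 in thymocytes. Single fragments also dominated the reads: the one with most reads took 35.2%, 27.2% and 34.1% of the reads of the stretch in WT replicate 2 and GRko replicates 1 and 2, against 7.73% in WT replicate 1 and 2.78% in thymocytes. In WT replicate 2 it lay at 30294366, between Mboat1 and Agtr1a, with 10297 reads, and in WT replicate 1 at 31320449, 346 kb from Exoc2, with 4155 reads. Neither had a read in another library.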

How the data were processed

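4C-seq used DpnII and then Csp6I, per the labels' protocols. The authors deposited raw read counts per DpnII fragment of chromosome 13, not normalized, in 1 file per library; per the file headers the first line gives the bait. Per the submitters' processing notes bcl2fastq, Bowtie 1.0.0 and mm10 were used. The treatment of reads that align to several places is not stated in the sources used here. Up to 3 positions missing from a file were set to 0 (none lay in the stretch).

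Fragments were assigned to windows, parts and genes by their midpoint. Gene spans, start sites and promoters came from RefSeq on GRCm38.p6; promoters of 28 of 33 listed genes matched, the first listed start being used. Covered far fragments per 500 kb window were tested with edgeR 4.0.16 (R 4.3.3, quasi-likelihood, covered far fragments as library size, Benjamini-Hochberg adjustment, threshold 0.05), with DESeq2 1.42.0 as an alternative. The test was run on simulated counts first. Shares were compared by exact permutation of libraries. Members and lists were chosen with earlier results of these data known; the windows of the stretch, the listed genes (prolactin genes as a group, with Prl) and the fragment of most reads in each library were to be named. Fragments covered in at least 4 libraries were too, but there were none; those in 3 libraries and the other prolactin genes were named after their values were seen. A count of 0 was set against 3 counts, over the library. Alternatives were minimum reads, read shares, equal numbers of fragments, other limits, normalizations and window sizes, left-out replicates and a replicate block.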

Additional observations from a re-analysis of the deposited data

How the results depend on the processing

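The genotype difference of the whole stretch kept neither direction nor size. From 0.00801 percentage points it went to -0.360 with at least 2 reads per fragment, -0.690 with at least 10, -0.0334 in reads, -0.708 with each library cut to its 848 best-read fragments (added after seeing the data) and -0.00331 with a far limit of 5 Mb, and it ran from -0.759 to 0.775 when each library was left out in turn. The 0 windows called between genotypes stayed 0 under all 14 alternatives. No 250 kb window of the stretch passed the filter, and with at least 2 or 10 reads only 1 window did. The window with part of Cdkal1 went from a log2 ratio of 0.41 to -0.037 in reads. It ran from -0.015 without WT replicate 1 to 0.72 without WT replicate 2. That with Mboat1 and Agtr1a went from -0.51 to 0.45 without GRko replicate 1 and -3.10 without GRko replicate 2, and was -5.83 in reads. Replicate numbers are shared by the genotypes and coincide with read length. Deviations of equal-numbered libraries correlated at r = 0.334 over 165 windows, but 2 pairs do not settle a pairing. With the replicate block 0 windows were called. The difference of the stretch was 0.00801 with it too, which a block in a balanced design cannot change and which says nothing about stability.

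Thymocytes minus WT muscle, in percentage points, moved by more than the SD between WT replicates as follows. For the whole stretch it went from -0.288 to 0.471 in reads and 1.12 with the 848 fragments. Some moves smaller than that SD changed its sign. It was 0.0204 with the 2434 fragments of most reads, 0.0622 over the lower-coordinate side alone and 0.123 with 500 kb off each end. It was 0.0437 without WT replicate 2, which leaves libraries read at 29 nt, and -0.620 without WT replicate 1. For the Hdgfl1 part it went from -0.500 to -0.258 with at least 10 reads. For the prolactin span it went from -0.0580 to 0.264 in reads. Between the prolactin genes and Sox4 it went from 0.483 to 0.293 with at least 10 reads, 0.663 in reads, 0.825 with the 848 fragments and 0.762 over the lower-coordinate side alone. From Sox4 to Exoc2 it went from 0.0749 to 0.367 in reads, 0.286 with the 2434 fragments of most reads, 0.884 with the 848 and 0.335 over the lower-coordinate side. The Hdgfl1 part stayed below WT, and the part before Sox4 above it, in every alternative run. With libraries read at 29 nt alone these differences were -0.336 and 0.369. The cause of each change was not tested.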

Other observations

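Covered fragments lay inside annotated genes more often than the fragments of the stretch as a whole. Genes of any kind held 35.9% of its 13650 fragments, and 60.6% of the covered fragments in thymocytes, 50.5% and 47.3% in the WT replicates, and 47.9% and 41.6% in the GRko replicates. Over all far fragments genes held 44.1%, and 62.2%, 55.3%, 52.4%, 55.4% and 49.1% of those covered in the same order. No test was run on these shares.

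Pairs of libraries shared few covered fragments of the stretch, given here as a share of each library's own and beside the same over all far fragments. WT replicate 2 and GRko replicate 1 shared 10, or 8.93% and 13.7% (8.21% and 8.89% over all far fragments). WT replicate 2 and GRko replicate 2 also shared 10, or 8.93% and 9.90% (7.68% and 9.53%). The GRko replicates shared 5, or 6.85% and 4.95% (6.88% and 7.89%). The WT replicates shared 1, or 0.526% and 0.893% (2.16% and 4.47%). Thymocytes shared 6 with WT replicate 1, or 2.08% and 3.16% (6.28% and 9.42%), and 3 with GRko replicate 1, or 1.04% and 4.11% (3.02% and 10.1%).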
